A study of Homo sapiens with 34 samples.

Results

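Glutathione is the most abundant thiol of the cell cytosol, and its reduced form is regenerated with NADPH, the reductant that the pentose phosphate pathway (PPP) supplies. The genes described here are 9 genes of glutathione synthesis, recycling and use, taken by their symbols from the 28690 loci of the deposited RNA-seq tables. Each of the 9 symbols matched exactly 1 locus. When the PPP was inhibited with 6-aminonicotinamide (6AN), 5 of the 9 genes were higher than in control at all 12 time points, namely *GCLC*, *GSR*, *SLC7A11*, *CHAC1* and *GPX4*, where 13.0% of the 13979 expressed loci (mean FPKM of at least 1) were. *GSS* and *GSTP1* were lower at all 12 time points, as were 20.4% of the expressed loci, a share close to 2 of 9. The 9 genes were chosen with earlier results of these data known, so these shares do not test the 9 as a set. Of 37 other expressed glutathione genes, 4 were higher and 9 were lower at all 12 time points, close to the shares of all expressed loci. In the control culture, *SLC7A11* and *CHAC1* had higher mean levels over the last 6 time points than over the first 6. For these genes the distance between the conditions narrowed late in the course.

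Glutathione is built in a pair of ATP-dependent steps. Glutamate-cysteine ligase, made of the catalytic subunit GCLC and the modifier subunit GCLM, joins glutamate to cysteine, and glutathione synthetase (GSS) adds glycine. Cysteine is often the limiting substrate, and much of it enters as cystine through system xc-, in which SLC7A11 is the transport subunit and SLC3A2 the chaperone that carries it to the membrane. Oxidized glutathione is returned to its reduced form by glutathione reductase (GSR) at the cost of NADPH. The peroxidases GPX1 and GPX4 spend glutathione to reduce hydrogen peroxide and lipid hydroperoxides, GSTP1 joins it to electrophiles, and CHAC1 breaks it down inside the cell. Many of these genes are known targets of NRF2, which binds antioxidant response elements, and *CHAC1* and *SLC7A11* are known targets of ATF4 in the integrated stress response.

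The cells were *Bmal1*:*luc* U2OS, a human osteosarcoma line that carries a luciferase reporter under the *Bmal1* promoter. All cultures were synchronized with dexamethasone, a glucocorticoid, and held either with 5 mM 6AN or with DMSO, the solvent control. RNA-seq libraries were labelled CT00 to CT44 in steps of 4 hr, with 1 library for each condition and time point and 24 in all. ChIP-seq libraries, 10 in all, covered BMAL1, CLOCK, H3K9ac, H3K4me3 and input DNA after 24 hr in each condition, with 1 library each. The methods of the study state that RNA was extracted in triplicate, but whether a library stands for 1 extract or for a pool was not given in the sources used here. The labels do not tie CT00 to an hour after synchronization or after the addition of 6AN, so the CT labels are used here as an order with steps of known length.

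Promoter sequence of RefSeq (GRCh38.p14) matched 6 of the 9 genes, namely *GCLC*, *GCLM*, *CHAC1*, *GPX1*, *GPX4* and *GSTP1*, and *GSS*, *GSR* and *SLC7A11* had no entry in the table used. Positions are counted back from the RefSeq start of transcription, and the base just before it is -1. The 250 bases before each start were searched on both strands for TGACNNNGC, the core of the antioxidant response element, for TGATGNAA, a core of the amino acid response element that ATF4 binds, and for CACGTG, the E-box that BMAL1 and CLOCK bind. No window held more than 1 match, so no matches overlap, and each match stands in capitals. The *GCLC* stretch is shown because a called peak lies over it, and the *CHAC1* stretch because *CHAC1* had the largest log2 ratio of the 9 genes. The 3 short stretches hold the remaining matches.
GCLC, chr6:53545130-53545351, minus strand: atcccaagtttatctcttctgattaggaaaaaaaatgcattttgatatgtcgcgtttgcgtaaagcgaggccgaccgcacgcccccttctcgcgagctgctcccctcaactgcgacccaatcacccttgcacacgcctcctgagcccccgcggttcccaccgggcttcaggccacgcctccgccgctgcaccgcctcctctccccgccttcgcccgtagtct
CHAC1, chr15:40953221-40953437, plus strand: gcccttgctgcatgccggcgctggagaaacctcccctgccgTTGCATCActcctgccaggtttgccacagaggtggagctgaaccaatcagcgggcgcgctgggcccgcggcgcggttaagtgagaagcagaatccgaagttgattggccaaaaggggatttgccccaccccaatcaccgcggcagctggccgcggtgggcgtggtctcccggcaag
GCLM, chr1:93909446-93909475, minus strand: ctacgatttctGCTTAGTCAttgtcttcca
GSTP1, chr11:67583735-67583764, plus strand: ggccggcgccgTGACTCAGCactggggcgg
GPX1, chr3:49358360-49358389, minus strand: aactgcctgtgcCACGTGacccgccgccgg
The amino acid response element letters began at -209 of *CHAC1*, in the reverse direction. The antioxidant response element letters began at -34 of *GCLM*, reversed, and at -66 of *GSTP1*, and the E-box began at -24 of *GPX1*. No match was found in the window of *GCLC* or in the windows of *GPX4*, for which RefSeq lists several starts. The deposited loci of *GCLM* and *GSTP1* begin upstream of their RefSeq starts and include the stretches shown. Of 35116 promoter windows of the same length, 10.9% held the antioxidant response element letters, 3.14% the amino acid response element letters and 6.34% the E-box. A match describes letters and is not evidence of a bound site. The absence of a match holds only for the 250 bases searched, and sequence further upstream was not searched.

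Expression was deposited as FPKM, a level scaled to transcript length and to library size, so levels can be compared between genes. The control and 6AN tables were each normalized over their own 12 libraries, and for this reason no p-value was computed between the conditions. Values of 6AN and control were compared at each time point as the log2 of (6AN FPKM + 1)/(control FPKM + 1), called the log2 ratio below, with its SD over 12 time points. This SD includes changes over time and holds no biological replicate. Depth was known only relative to the other libraries of a table, and ran from 0.582 to 1.32 times the table median in control and from 0.697 to 1.56 times in 6AN. A single locus, *MIR6723*, took 17.2% to 19.6% of all FPKM in control libraries and 20.3% to 24.3% in 6AN libraries. Over the 13979 loci with a mean FPKM of at least 1, called expressed here, the median log2 ratio was -0.03. The lineage markers *VIM*, *SPARC*, *RUNX2* and *FN1* were at 11.6 FPKM or more in every library and *COL1A1* at 13.3 or more, while *COL1A2* reached at most 0.106. Of these 6 markers, *SPARC*, *COL1A1* and *FN1* were lower in every 6AN library than in any control library, and the summed level of the list ran from 1612 to 1886 FPKM in control and from 968 to 1372 in 6AN. Markers of other cell types (*PTPRC*, *CD3E*, *EPCAM*, *CDH1*, *ALB*, *PECAM1*) summed to 1.11 to 2.24 FPKM in control and 1.12 to 2.30 in 6AN. The part of the lineage markers in the results on glutathione genes was not tested. In bulk RNA, a change in every cell and a change in which cells were present cannot be told apart.

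The 9 genes fell into an abundant group and a scarce group. In control, the genes that spend glutathione led, with *GSTP1* at 506 ± 42 FPKM (mean ± SD, n = 12 time points), *GPX1* at 350 ± 38 and *GPX4* at 348 ± 30. The genes that make and recycle it followed, with *GSS* at 31.5 ± 2.4, *GSR* at 27.1 ± 1.5 and *GCLC* at 19.3 ± 1.8. *CHAC1* (9.20 ± 6.0), *GCLM* (7.25 ± 0.81) and *SLC7A11* (6.40 ± 2.5) were the lowest. *GSTP1* was above *GPX1* at all 12 time points without overlap, whereas *GPX1* was above *GPX4* at 8 of 12 and *CHAC1* above *GCLM* at 5 of 12, so neither of these neighbours could be ordered. In 6AN, the order changed at the top, where *GPX4* (474 ± 44) stood above *GSTP1* (383 ± 29) at all 12 time points, although their ranges overlapped. *GSR* and *GCLC* stood above *GSS* in 6AN, and *GCLM* was the lowest at 6.64 ± 0.74 FPKM, below *SLC7A11* in every 6AN library.

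**Figure D1:**
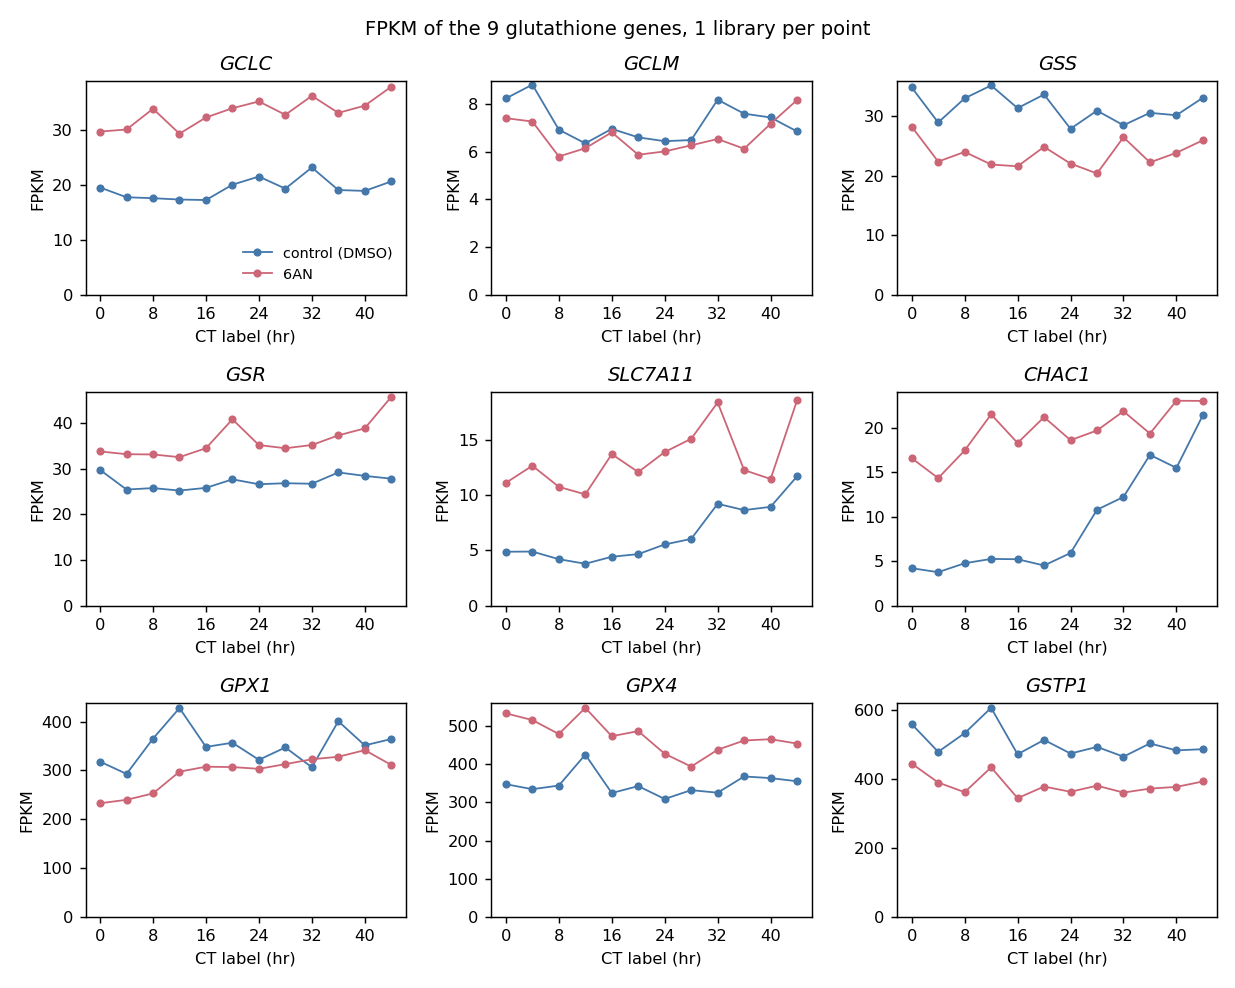
FPKM (y axis, from 0) of the 9 genes against the CT label in hr (x axis) in control and 6AN, with 1 library per point. The 6AN line of *GCLC*, *GSR*, *SLC7A11*, *CHAC1* and *GPX4* lies above the control line at all 12 time points, and the control lines of *SLC7A11* and *CHAC1* climb late in the course.

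The question of the comparison between conditions was how these genes stood under 6AN, which inhibits NADPH supply from the PPP. In the paper, 6AN at 5 mM also lowered total NAD. The RNA-seq libraries held only 6AN and control, so effects of NADPH and of NAD cannot be told apart here. Of the 9 genes, 5 were higher in 6AN at all 12 time points, where 13.0% of the expressed loci were, and 2 were lower at all 12, where 20.4% of the expressed loci were. Because the genes were chosen with earlier results of these data known, the shares are context and not a test. The FPKM ranges did not overlap for 3 of them. *GCLC* and *GSR* were higher in every 6AN library than in any control library, as were 5.89% of the expressed loci, and *GSTP1* was lower in every one, as were 10.3%. The median over the 9 genes of their median log2 ratio was 0.38, and the genes ran from -0.39 (*GSS*) to 1.57 (*CHAC1*). Among the expressed loci, the 5th and 95th percentiles of the same quantity were -0.76 and 0.55, so *CHAC1*, *SLC7A11* and *GCLC* lay above the 95th percentile and the other 6 genes lay inside.

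**Figure D2:**
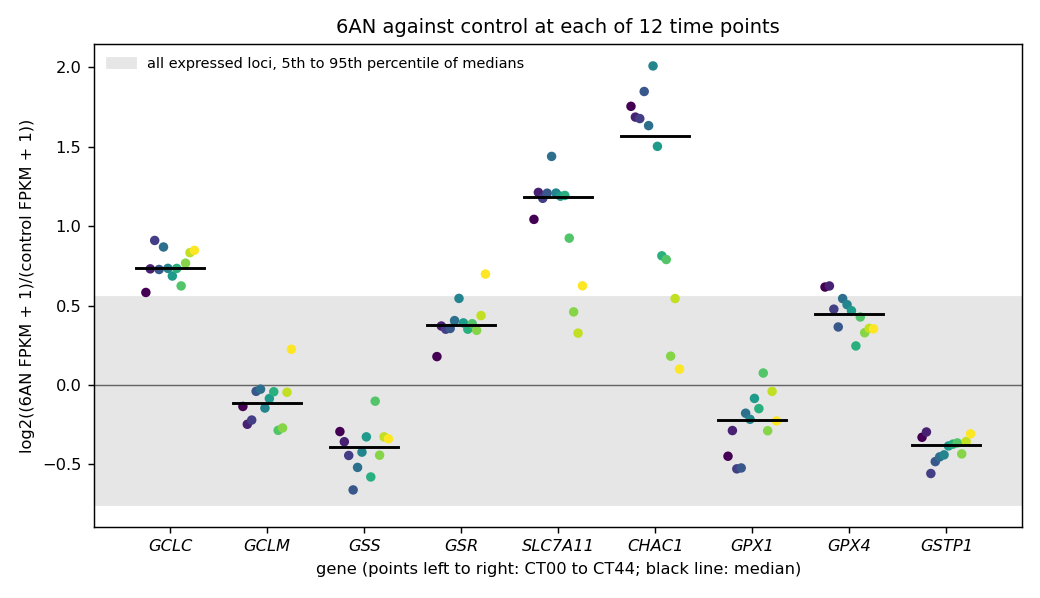
Log2 ratio of 6AN to control (y axis) at each of 12 time points for the 9 genes (x axis), with points ordered and shaded from CT00 (dark) to CT44 (light), the median as a black line, and the 5th to 95th percentile of the medians of all expressed loci in grey. *CHAC1* falls from 1.75 at CT00 to 0.10 at CT44, while *GCLC* stays between 0.58 and 0.91.

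The synthesis genes did not move together. *GCLC* (locus chr6:53497341-53545129), the catalytic subunit of the first step, had a lowest, median and highest FPKM of 17.2, 19.1 and 23.1 in control and of 29.3, 33.4 and 37.8 in 6AN. Every 6AN library lay above every control library, and the mean was 72.0% higher, with a median log2 ratio of 0.73 ± 0.10 (SD). *GCLM* (chr1:93885200-93909598), the modifier subunit of the same enzyme, had 6.35, 6.95 and 8.82 FPKM in control and 5.80, 6.41 and 8.18 in 6AN. It was lower in 6AN at 11 of 12 time points and higher at CT44, the ranges overlapped, and the median log2 ratio of -0.11 was within its SD of 0.14. *GSS* (chr20:34928433-34955798), the enzyme of the second step, had 27.9, 31.1 and 35.2 FPKM in control and 20.4, 23.1 and 28.2 in 6AN. It was lower in 6AN at all 12 time points with a median log2 ratio of -0.39 ± 0.15, and 11 of 12 6AN libraries lay below the lowest control library. The exception was the 6AN library at CT00. Long noncoding RNA genes overlap the loci of *GCLC*, *GCLM* and *SLC7A11* in RefSeq, and whether counting used strand was not given in the sources used here.

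Because both subunits of glutamate-cysteine ligase were read in the same library, their ratio does not depend on how either table was scaled. The FPKM ratio of *GCLM* to *GCLC* ran from 0.300 to 0.498 in control, with a mean of 0.378 ± 0.053 (SD, n = 12 time points). In 6AN it ran from 0.171 to 0.250, with a mean of 0.201 ± 0.027, and no 6AN library reached the lowest control library. The median log2 difference was -0.93, and it was similar over CT00 to CT20 (-0.93) and over CT24 to CT44 (-0.87).

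*GSR* (chr8:30678063-30727969), which reduces oxidized glutathione with NADPH, had a lowest, median and highest FPKM of 25.2, 26.7 and 29.7 in control and of 32.5, 34.8 and 45.7 in 6AN. The ranges did not overlap, and the mean of 6AN was 33.7% higher (median log2 ratio 0.38 ± 0.12). The ratio was smallest at CT00 (0.18) and largest at CT44 (0.70), where *GSR* reached its highest level in 6AN.

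The genes of cystine import and of glutathione breakdown had the largest differences and the strongest dependence on time. *SLC7A11* (chr4:138027423-138242349) had a lowest, median and highest FPKM of 3.79, 5.21 and 11.7 in control and of 10.1, 12.4 and 18.6 in 6AN. It was higher in 6AN at all 12 time points (median log2 ratio 1.18 ± 0.35), but the ranges overlapped because the control library at CT44 exceeded 4 of the 6AN libraries. The median log2 ratio was 1.21 over CT00 to CT20 and 0.77 over CT24 to CT44, a split chosen after the values were seen. *CHAC1* (chr15:40953438-40956519) had 3.76, 5.58 and 21.4 FPKM in control and 14.3, 19.5 and 23.02 in 6AN. It was also higher at all 12 time points, with a median log2 ratio of 1.57 ± 0.68. This ratio was 1.75 at CT00 and 2.01 at CT20, fell to 0.81 at CT28, and was 0.10 at CT44. The median was 1.72 over the first 6 time points and 0.67 over the last 6. Control *CHAC1* was at 5.92 FPKM at CT24, 10.8 at CT28 and 16.9 at CT36, whereas 6AN *CHAC1* was at 16.6 at CT00. The conditions were thus further apart at each label from CT00 to CT24 than at any later label, and nearly alike at CT44.

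*SLC3A2*, the partner of *SLC7A11* in system xc-, was higher in 6AN as well, without overlap of the ranges (98.6 to 150 FPKM in control, 217 to 288 in 6AN, median log2 ratio 1.04 ± 0.19). The FPKM ratio of *SLC7A11* to *SLC3A2* therefore overlapped between the conditions, with a mean of 0.0519 ± 0.016 in control and 0.0546 ± 0.012 in 6AN. It was higher in 6AN at 8 of 12 time points. Its median log2 difference was 0.16 over all time points and -0.07 over CT24 to CT44, both within the SD of 0.26. The ratio of *CHAC1* to *GCLC* also turned with time. In control it ran from 0.212 to 1.04 with a median of 0.303, and in 6AN from 0.477 to 0.734 with a median of 0.593. It was higher in 6AN at 9 of 12 time points, with a median log2 difference of 1.22 over CT00 to CT20 and of -0.09 over CT24 to CT44.

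The glutathione-using enzymes split. *GPX4* (chr19:1103926-1106789), the peroxidase that reduces lipid hydroperoxides in membranes, had a lowest, median and highest FPKM of 309, 344 and 426 in control and of 394, 470 and 548 in 6AN. It was higher in 6AN at all 12 time points, with a median log2 ratio of 0.45 ± 0.12, and 11 of 12 6AN libraries lay above the highest control library. *GPX1* (chr3:49357176-49358358), the cytosolic peroxidase, had 293, 350 and 428 FPKM in control and 233, 307 and 342 in 6AN. It was lower in 6AN at 11 of 12 time points and higher at CT32, with a median log2 ratio of -0.22 ± 0.19. *GSTP1* (chr11:67583595-67586653), a transferase, had 465, 490 and 606 FPKM in control and 344, 378 and 445 in 6AN. Every 6AN library lay below every control library, the mean was 24.2% lower (percent difference -24.2), and the median log2 ratio was -0.38 ± 0.08. *GPX1* and *GSTP1* have pseudogenes in RefSeq, and how reads that match several loci were shared out was not given in the sources used here.

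The FPKM ratio of *GPX4* to *GPX1* set these peroxidases against each other within a library. In control it ran from 0.919 to 1.14 (mean 0.998 ± 0.070, SD, n = 12 time points), so the transcripts were about equally abundant. In 6AN it ran from 1.26 to 2.29 (mean 1.63 ± 0.34), above every control library. The median log2 difference was 0.90 over CT00 to CT20 and 0.48 over CT24 to CT44. The 6AN ratio was highest at CT00 (2.29) and lowest at CT28 (1.26).

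**Figure D3:**
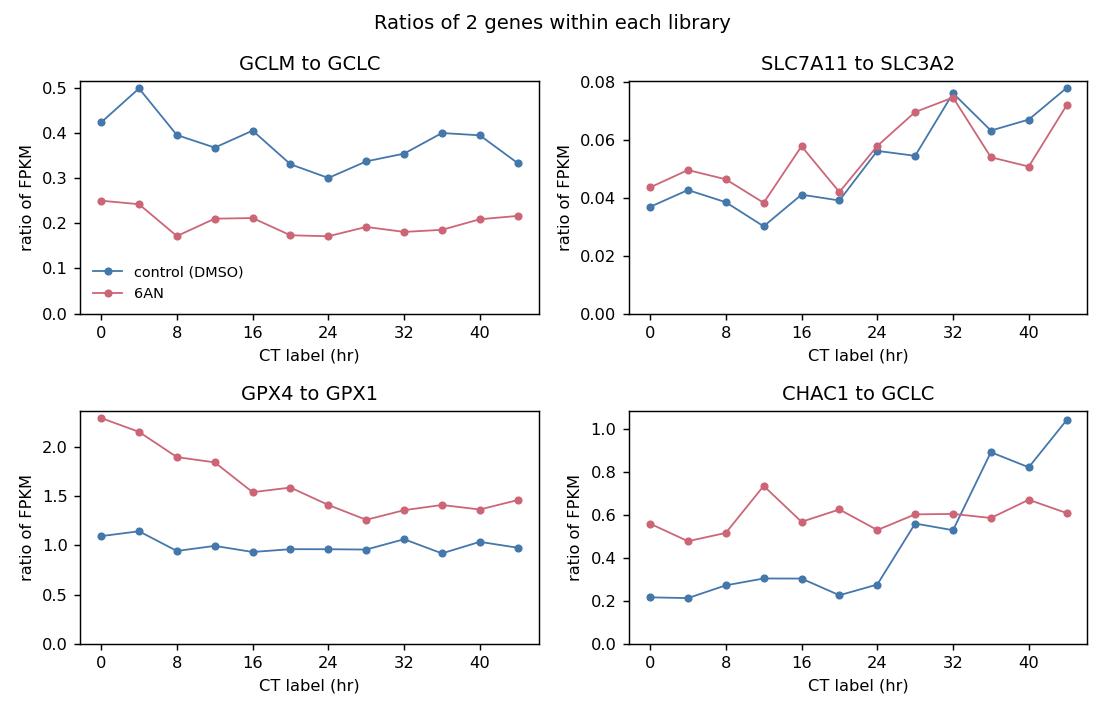
Ratio of the FPKM of 2 genes within each library (y axis, from 0) against the CT label in hr (x axis) for *GCLM* to *GCLC*, *SLC7A11* to *SLC3A2*, *GPX4* to *GPX1* and *CHAC1* to *GCLC*. The *GCLM* to *GCLC* lines stay apart (0.300 to 0.498 in control, 0.171 to 0.250 in 6AN), the *GPX4* to *GPX1* line of 6AN comes down from 2.29, and the *CHAC1* to *GCLC* lines cross.

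Changes over time were tested within each table with limma, by a model of log2(FPKM + 1) with a linear trend and a 24 hr cosine and sine, and adjusted by Benjamini-Hochberg over the 13979 expressed loci. In control, 2 of the 9 genes had an upward trend at adjusted p under 0.05, where 2.63% of the expressed loci did, and 0 had a downward trend, where 2.96% did. *CHAC1* rose by 1.29 ± 0.16 (SE) per 24 hr on the log2 scale (limma adjusted p = 0.00266), and *SLC7A11* rose by 0.73 ± 0.13 (limma adjusted p = 0.0118). Control *CHAC1* averaged 4.62 FPKM over CT00 to CT20 and 13.8 over CT24 to CT44, and *SLC7A11* averaged 4.47 and 8.33. A slope is an average over the whole course, and whether the rise was even was not tested. Both calls held when any single time point was left out, with adjusted p of at most 0.012 for *CHAC1* and 0.0473 for *SLC7A11*. The other 7 genes had trends between -0.12 (*GSTP1*) and 0.15 (*GCLC*) that did not pass.

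In 6AN, 5 genes had an upward trend, where 11.0% of the expressed loci did, and 1 had a downward trend, where 13.2% did. *GPX1* rose by 0.23 ± 0.05 (SE) per 24 hr on the log2 scale (limma adjusted p = 0.00793), from 233 FPKM at CT00 to 342 at CT40, and this call held when any single time point was left out. *GPX4* fell by 0.20 ± 0.05 (limma adjusted p = 0.017), and the call was lost without CT00 (adjusted p = 0.0672). *GCLC* rose by 0.16 ± 0.04 (limma adjusted p = 0.0241) and *GSR* by 0.15 ± 0.04 (limma adjusted p = 0.0279). *SLC7A11* rose by 0.34 ± 0.11 (limma adjusted p = 0.0449) and *CHAC1* by 0.21 ± 0.07 (limma adjusted p = 0.0498), both just inside the threshold. Leaving out a time point moved the count of 6 called genes to 1 without CT00, to 3 without CT12 and to 2 without CT32 or CT44. The *GCLC* call was lost without CT00, CT12, CT32 or CT44, and the *GSR* call without these or without CT16 or CT36. The calls of *SLC7A11* and *CHAC1* in 6AN each held in only 2 of the 12 omissions. *GCLM*, *GSS* and *GSTP1* did not pass in either condition. Whether a trend differed between the conditions was not tested, since the tables were normalized separately.

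**Figure D4:**
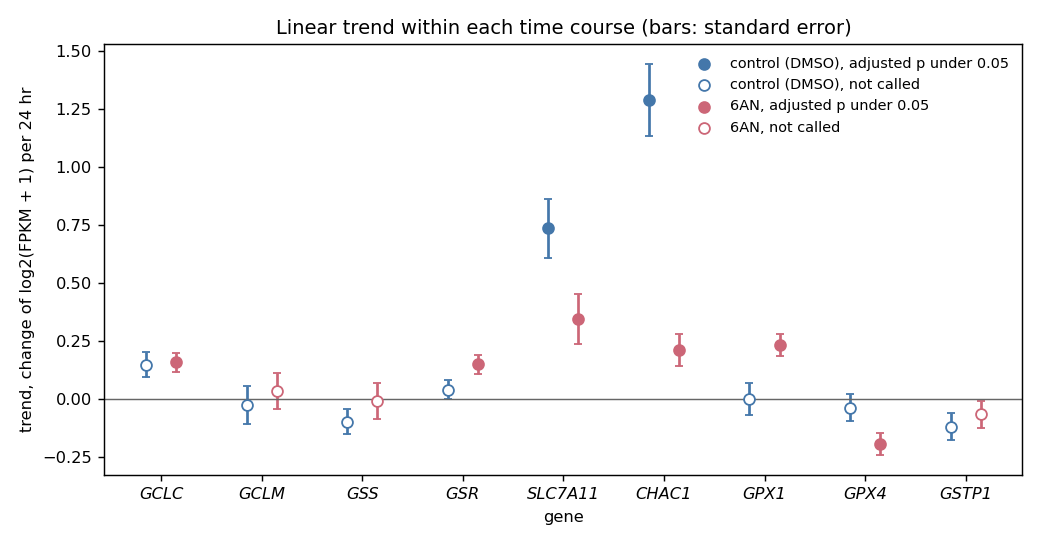
Linear trend of log2(FPKM + 1) per 24 hr (y axis, with SE bars) for the 9 genes (x axis) in control and 6AN, filled where the limma adjusted p is under 0.05. In control, *CHAC1* (1.29) and *SLC7A11* (0.73) are filled. In 6AN 6 genes are filled, all upward except *GPX4*.

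A 24 hr rhythm was called by limma for 0 of the 9 genes in either condition. The background was also close to nothing, with 0.00715% of the expressed loci called in control and 0% in 6AN, although 949 and 1093 loci had an unadjusted p under 0.05. Of the 9 genes, none had such an unadjusted p in control and *GSR* alone had one in 6AN (limma adjusted p = 0.569 over all expressed loci). The fitted amplitudes were small. They ran from 0.04 to 0.16 on the log2 scale in control, with the largest for *CHAC1*, and from 0.03 to 0.18 in 6AN, with the largest for *SLC7A11*. With a period of 28 hr in place of 24 hr, 0 of the expressed loci were called in either condition. The paper describes *GSR* mRNA as rhythmic, although its statistics did not detect that gene as circadian. Its counts of circadian transcripts come from another test, RAIN, at another threshold, and cannot be set beside these. The smallest amplitude that 12 libraries could detect was not tested.

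A list of 46 other glutathione genes, peroxidases, transferases, breakdown enzymes, glutaredoxins, glyoxalases, transporters and cysteine supply, held 37 expressed genes. Of these, 4 were higher in 6AN at all 12 time points and 9 were lower at all 12, and the median of their median log2 ratios was -0.13. These shares were close to the 13.0% and 20.4% of all expressed loci. *CTH*, which releases cysteine from cystathionine, was at 4.96 ± 1.8 FPKM in control and 12.8 ± 3.9 in 6AN (median log2 ratio 1.20 ± 0.20), and *SLC3A2* was described above. *GLRX*, a glutaredoxin that reduces protein-glutathione disulfides (log2 ratio 0.46), and *HAGH*, a glyoxalase (0.39), are named because they complete the count, after their values were seen. The ranges did not overlap for *SLC3A2*, the only one of the 37 with higher ranges, and for 5 genes with lower ranges, against 5.89% and 10.3% of all expressed loci. *GSTA4*, a transferase for lipid aldehydes, was lowest relative to control, at 25.1 ± 3.8 FPKM in control and 12.3 ± 1.7 in 6AN (median log2 ratio -0.93 ± 0.24). *GLO1*, the glyoxalase that converts the glutathione adduct of methylglyoxal, was at 153 ± 6.9 and 101 ± 5.3 FPKM (-0.60 ± 0.08). *MGST3* (-0.44), *GPX8* (-0.43) and *GSTCD* (-0.36) were the others. Among the 3 other expressed peroxidases, *GPX3* (-0.22) and *GPX7* (-0.20), named to complete the group after their values were seen, also had medians below 0. Of 13 expressed transferases, 11 had a median below 0, as had 53.6% of all expressed loci.

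**Figure D5:**
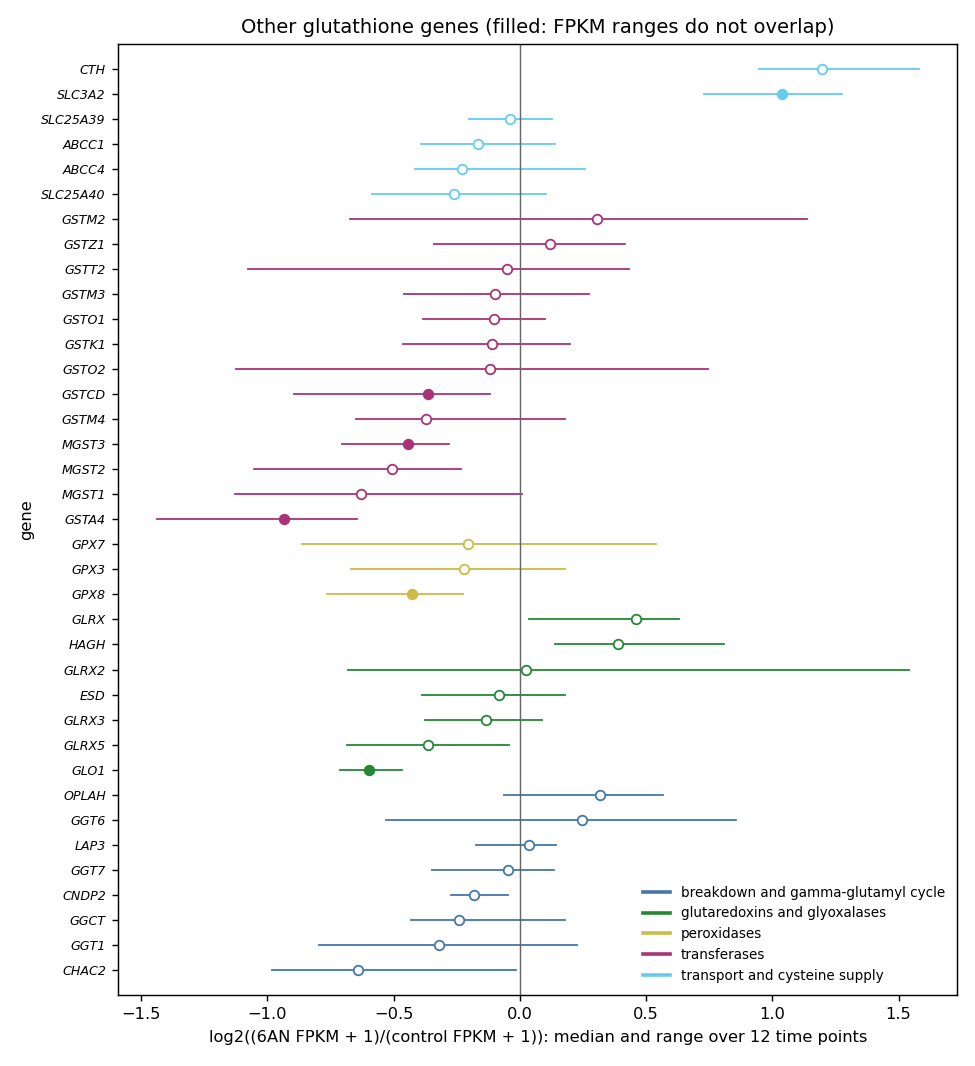
Median and range over 12 time points of the log2 ratio of 6AN to control (x axis) for the 37 other expressed glutathione genes (y axis), coloured by group and filled where the FPKM ranges of the conditions do not overlap. *CTH* (1.20) and *SLC3A2* (1.04) stand at the top right, and *GSTA4* (-0.93) is the lowest.

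The same limma test of time found trends in few of these 37 genes in control, with *CTH* up by 0.60 ± 0.09 (SE) per 24 hr (limma adjusted p = 0.00777) and *GGT7*, of the gamma-glutamyl transferase family, up by 0.19 ± 0.03 (limma adjusted p = 0.0139). In 6AN, *CTH* (0.63), *GSTO2* (0.40), *GLRX3* (0.24) and *ABCC4* (0.20) had upward trends per 24 hr. *GSTZ1* (-0.29), *GPX3* (-0.24), *GLRX5* (-0.23) and *SLC25A39* (-0.17) had downward trends. The 4 upward and 4 downward trends among 37 genes were near the 11.0% and 13.2% of all expressed loci in 6AN, and the 2 upward trends in control were set against 2.63%. *CTH* was thus the only other glutathione gene with an upward trend in both tables, like *SLC7A11* and *CHAC1*. The 6AN calls of *SLC7A11* and *CHAC1* each held in only 2 of the 12 omissions of a time point, so this likeness is not firm. No gene of the 37 had a rhythm at adjusted p under 0.05, and 1 in control and 4 in 6AN had an unadjusted p under 0.05.

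Lists of 2 known regulons were set beside the 9 genes, chosen for comparison with results of these data already known. Of 10 NRF2 targets outside glutathione, 4 were higher in 6AN at all 12 time points and 4 were lower at all 12, with median log2 ratios from -0.95 (*NQO1*) to 1.18 (*OSGIN1*) and a median of -0.02. Of 9 expressed genes of the integrated stress response, 9 were higher at all 12 time points, with ratios from 0.28 (*SLC7A5*) to 2.10 (*TRIB3*) and a median of 1.03. The shares of all expressed loci beside these counts were 13.0% higher and 20.4% lower. Over the same 9 stress response genes, 3 had an upward trend in control (*ATF4*, *ASNS*, *PSAT1*) and 6 had one in 6AN, where 2.63% and 11.0% of all expressed loci did.

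The loci whose log2(FPKM + 1) followed a glutathione gene most closely over the 24 libraries were found among the expressed loci for the 4 genes with the largest log2 ratios. These points share libraries and 2 conditions, so a coefficient mixes the distance between the conditions with changes over time. These parts were not separated for the loci named here. For *CHAC1* they were *ASNS* (Pearson's r = 0.963), *CARS* (0.960) and *MTHFD2* (0.952). For *SLC7A11* they were *MTHFD2* (0.968), *ASNS* (0.957) and *PCK2* (0.954), and *ASNS* and *MTHFD2* thus stood on both lists. *GCLC* was followed by other loci, namely *SLC7A2* (0.974), *CRIM1* (0.963) and *PTPRM* (0.963), and *GPX4* by *CDC34* (0.964), *ARC* (0.963) and *ZNF598* (0.960).

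BMAL1 and CLOCK, the activators of the circadian clock, were mapped at 24 hr. The deposited lists held 147 shared BMAL1/CLOCK sites in control and 439 in 6AN. Of the 9 genes, *GCLC* was the gene assigned to 1 control site, and 0 of the 439 sites in 6AN were assigned to any of the 9. The share of all expressed loci with such a site was not computed. With 147 and 439 sites beside 13979 expressed loci, most genes can have none, so these counts are not a result about the 9 genes. The *GCLC* site (chr6:53547652-53548652, hg38) was annotated as intergenic and upstream of the start of transcription (distance of -3023 bases). For BMAL1, its signal in tags within 1000 bp, scaled to a common library total, was 29.5 in control and 39.9 in 6AN. The CLOCK signal was 40.5 and 48.3. The input signal was 14.9 and 21.8, and H3K9ac was 49.7 and 87.2. These values rest on 22 and 31.5 BMAL1 tags, and the 95% counting interval of the log2 difference, which covers counting error only, ran from -0.35 to 1.22. For CLOCK it ran from -0.66 to 1.18 and for H3K9ac from -0.34 to 1.97, so no difference between conditions was detectable at this depth. After subtraction of the log2 change of the input, the log2 difference of (signal + 1) went from 0.42 to -0.10 for BMAL1 and from 0.25 to -0.27 for CLOCK. H3K4me3 at the site was 175 in control and 157 in 6AN.

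Called peaks of single libraries lay within 10000 bases of 2 of the 9 genes, and of 32.2% of all expressed loci. At *GCLC*, an interval at chr6:53545038-53545292 with called peaks in the BMAL1 library of 6AN and the CLOCK library of control covered 163 bases of the promoter stretch printed above, in which no E-box was found. A further interval at chr6:53548029-53548275 carried the BMAL1 and CLOCK peaks of control that made up the shared site. At *GPX4*, a CLOCK peak of 6AN (chr19:1102564-1102764) and a BMAL1 peak of 6AN (chr19:1099591-1099791) lay upstream of the locus, with centres at -1262 and -4235 bases from its start. At *GPX1*, whose promoter window holds an E-box, no interval was listed within this distance, as at the other 6 genes. A peak listed in 1 library and not in another is a call of the peak caller and was not tested as a difference. Among the other glutathione genes, *SLC25A39*, a mitochondrial glutathione carrier, was assigned to 1 control site (chr17:44326508-44327508), where the CLOCK signal was 28.2 in control and 79.1 in 6AN (95% counting interval of the log2 difference 0.53 to 2.45). The BMAL1 signal there was 24.8 and 27.2 and the input 6.76 and 11.9, and subtraction of the input took the CLOCK difference from 1.46 to 0.72.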

How the data were processed

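RNA-seq FPKM values were deposited by the authors in 2 tables, control and 6AN, made with TopHat, Bowtie and Cufflinks on hg38 (versions not given in the sources used here), each normalized over its own 12 libraries. The ChIP-seq signal was deposited by the authors from HOMER, as tags in 1000 bp scaled to one common total per library, with a score for each merged peak that gave no value here. All per-sample columns were used (0 left out). Starts of loci were shifted by 1 to count from 1.

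Python 3.11.15, NumPy 2.4.6, pandas 2.3.3 and matplotlib 3.10.9 were used. Within each table, limma 3.58.1 (R 4.3.3, eBayes with intensity trend, two-sided) was fitted to log2(FPKM + 1) over loci with mean FPKM of at least 1 (intercept, time, 24 hr cosine and sine). Calls were made at Benjamini-Hochberg adjusted p under 0.05. The method was tested on simulated data with planted trends of 1 per 24 hr and rhythm amplitudes of 1 on the log2 scale. These are larger than the 6AN trends and the amplitudes reported here, and detection at smaller sizes was not tested. With 1 library per group, p-values measure the spread around the fitted curve. 6AN was compared with control as a description. Relative depth came from the value of 1 read in loci with few reads. Intervals for tags are 95% normal intervals of the log ratio of Poisson counts.

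Genes named were the 9 genes, other listed glutathione genes with ranges that did not overlap or with a call, the 3 loci most alike, and genes with a shared site. The genes and lists were chosen with earlier results of these data known. Alternatives were other pseudocounts (0.1 for FPKM, 5 for signal), filters, centring, models, a 28 hr period, leaving out each time point and, added after seeing the data, the first and last 6 time points.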

Additional observations from a re-analysis of the deposited data

How the results depend on the processing

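The 6AN libraries were compared with control under another pseudocount, after centring and with each time point left out. They were also compared over CT00 to CT20 and over CT24 to CT44. The count of 5 genes higher at every time point was the same under each of these settings. Only centring could have lowered it. A pseudocount keeps the sign of a log2 ratio, and a call over fewer time points is easier to meet. The count of 2 genes lower at every time point became 4 over CT00 to CT20, where *GCLM* and *GPX1* joined, and 3 without CT32 or without CT44. Fewer time points can only keep or raise such a count, for the expressed loci too. The shares of 13.0% and 20.4% over all time points are therefore not the background of these counts. The median log2 ratios of *SLC7A11* (0.77) and *CHAC1* (0.67) were smaller over CT24 to CT44, and the median log2 difference of the ratio of *SLC7A11* to *SLC3A2* (-0.072) and of *CHAC1* to *GCLC* (-0.093) turned there. The count of genes with a trend in 6AN ran from 1 to 5 when a time point was left out. Without the filter on low values or at a mean FPKM of at least 0.1, *SLC7A11* and *CHAC1* lost their 6AN call (adjusted p from 0.0551 to 0.0787), as did *CHAC1* without the intensity trend (0.0528), *SLC7A11* with time alone (0.104) and a 28 hr period (0.0644), and *GPX4* with time alone (0.067). Trends that were not called turned in sign in control for *GPX1* (0.0606 with time alone, 0.00538 with a 28 hr period) and *GPX4* (0.00266 with time alone), and in 6AN for *GSS* (0.00673 after centring, 4.47e-05 with a 28 hr period). Leaving out a time point gave control trends per 24 hr from -0.0727 to 0.029 for *GCLM*, from -0.0367 to 0.0483 for *GPX1* and from -0.0899 to 0.0112 for *GPX4*, and 6AN trends from -0.0353 to 0.0778 for *GCLM* and from -0.0669 to 0.0698 for *GSS*. The H3K4me3 value at *GCLC* moved from -0.15 to -0.67 after subtraction of the input. The cause of these changes was not tested. No paired test was run between the conditions. Replicate numbers pair no libraries, each condition and time point having 1. The conditions were matched by time point in the log2 ratios, with no p-value since the tables were normalized separately. The ratios of 2 genes within a library do not depend on that scaling, and they too were only described. Centring moved the share of expressed loci higher at every time point from 13.0% to 16.3% and the share lower from 20.4% to 17.8%. Depth limits the ChIP-seq values, since the *GCLC* site held as few as 7.0 H3K9ac tags in control, and so does the single library of each target and condition.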
